A study of Mus musculus with 24 samples.

Results

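The mRNAs of the cytosolic ribosomal proteins were followed in mouse lung adenocarcinoma cells. Members were chosen by gene symbol: 89 symbols in the count tables had the form of a ribosomal protein of the large subunit (Rpl, with Rplp0, Rplp1 and Rplp2) or of the small subunit (Rps, with Rpsa). Of these, 6 are annotated as pseudogenes by RefSeq or GENCODE and were left out (Rpl32l, Rpl6l, Rps12l1, Rps3a2, Rps3a3 and Rps4l). Another 3, the tissue-restricted paralogs Rpl3l, Rpl10l and Rpl39l, stayed under 1 count per 1e6 counts (CPM) in every library, with a highest value of 0.19 CPM for Rpl3l, 0.0211 CPM for Rpl10l and 0.0217 CPM for Rpl39l. The remaining 80 genes, 48 of the large and 32 of the small subunit, are the members. Each was above 1 CPM in all 24 libraries, so none of them entered through a group in which it was high. They are 80 of 38937 genes in the table of shRNA libraries and of 39310 genes in the table of siRNA libraries.

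RNA-seq was available for 24 libraries of cultured tumour cells, in 6 groups of 4, which per the series' design text came from lung tumours as GFP-positive, CD45-negative sorted cells. The shRNA table holds S/S cells with an shRNA against Atf4 (S/S shAtf4) and S/S cells with a scrambled shRNA (S/S shControl). The siRNA table holds A/A cells with an siRNA against Chchd10 (A/A siChchd10) or a control siRNA (A/A siControl), and S/S cells with the same siRNAs (S/S siChchd10 and S/S siControl). S/S and A/A name the alleles of eIF2α, the translation initiation factor whose phosphorylation on a serine starts the integrated stress response. S/S cells keep the serine, and in A/A cells it is an alanine that cannot be phosphorylated. ATF4 is the transcription factor whose translation rises under that response, and CHCHD10 resides between the membranes of mitochondria. The labels give no further allele, no age and no dose or time for the RNA interference. The library names carry a single number for the Atf4 hairpin, and nothing in the labels states that the 4 libraries of a group are separate cultures or that A/A and S/S cells come from more than 1 tumour each. All groups were taken from the titles, because the genotype label of the A/A siControl libraries reads WT.

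A cytosolic ribosome joins a large and a small subunit, each built from ribosomal RNA and from proteins that are mostly needed in equal numbers. Their mRNAs begin with a C followed by a tract of pyrimidines, the 5′ terminal oligopyrimidine (TOP) motif, through which mTORC1 and LARP1 control their translation and stability as a group. Transcription factors of the MYC family raise ribosomal protein genes and assembly factors together in growing tumour cells, and free RPL5 and RPL11 bind MDM2 when assembly fails.

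Library totals ran between 14.1 and 70.9 (in 1e6 counts) in the shRNA table and between 42.9 and 75.4 in the siRNA table. Atf4 averaged 271 ± 46.8 CPM in S/S shAtf4 and 679 ± 173 CPM in S/S shControl (SD, n = 4 each). Chchd10 averaged 1.83 ± 0.352 CPM in A/A siChchd10 and 8.93 ± 1.13 CPM in A/A siControl, and 6.3 ± 0.668 CPM in S/S siChchd10 and 42.6 ± 3.84 CPM in S/S siControl, so the A/A controls were already low. Of the 8 carcinoma epithelium markers, 6 or 7 averaged 1 CPM or more in every group and their sum lay between 3935 and 6733 CPM, but Nkx2-1 was at 0 in both shRNA groups and Sftpc in S/S shControl. Summed markers of leukocytes (8 genes) reached at most 76.97 CPM, with Tyrobp at 0 in every library, those of fibroblasts 18.4 CPM and those of endothelial cells 3.11 CPM. Some libraries stood apart. On the leading principal component, taken over 1000 genes of highest variance, replicate 4 of both shRNA groups lay at 30.7 (S/S shAtf4) and 32.1 (S/S shControl), against -18.3 to -2.48 in the other 6, and A/A siControl replicate 1 lay at 26.8, against 36.1 to 37.5 in the other 3 of its group. The Y-linked gene Ddx3y measured 0.645 to 1.34 CPM in S/S shAtf4 and 44.4 to 53.5 CPM in S/S shControl, so these groups differ in more than Atf4, and it measured 129 to 147 CPM in A/A siControl and 47.6 to 56.7 CPM in S/S siControl. The tumour suppressor Cdkn2a measured 0.0584 to 1.85 CPM in the shRNA table and 153 to 228 CPM in the siRNA table, so the S/S cells of the 2 tables were not alike. The part of these differences in the results below was not tested.

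The members took a smaller share of the transcriptome in A/A than in S/S cells. They summed to 4.416%, 4.196%, 4.315% and 4.202% of all counts in the A/A siControl libraries and to 5.27%, 5.35%, 4.81% and 5.36% in the S/S siControl libraries. Every A/A siControl library lay under every S/S siControl library, with means of 4.28 ± 0.105% and 5.2 ± 0.264% (SD, n = 4 each). With siChchd10 the shares were 3.86%, 4.08%, 4.15% and 4.25% in A/A cells and 4.77%, 4.53%, 5.16% and 5.06% in S/S cells, again without overlap. The siChchd10 and siControl groups overlapped within each genotype. In the shRNA table the shares were 4.88%, 4.92%, 4.93% and 4.5% in S/S shAtf4 and 4.58%, 5.31%, 4.7% and 4.26% in S/S shControl, and the S/S shAtf4 values fell inside the S/S shControl range. These are shares of bulk RNA, in which fewer cells that express the genes and less RNA per cell cannot be told apart. No p-value is given for a sum over genes that were chosen as a group.

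**Figure D1:**
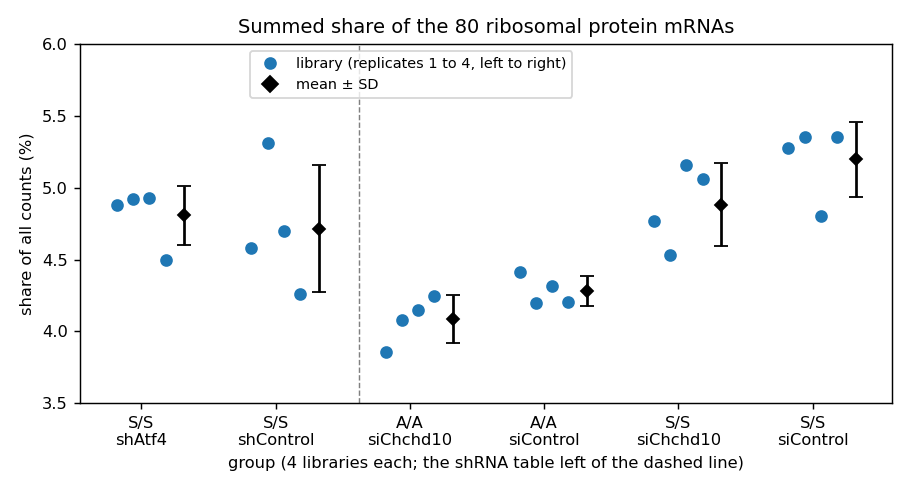
Summed counts of the 80 members as a percent of all counts in each library (blue points, replicates 1 to 4 from left to right) with the mean ± SD of the 4 libraries (black diamonds). The y axis starts at 3.5%. The 8 A/A libraries lie between 3.86% and 4.42%, under all 8 S/S libraries of the same table, while S/S shAtf4 lies inside the range of S/S shControl.

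The ratio of the summed counts of the subunits also differed by genotype. Counts of the large subunit divided by counts of the small subunit gave 1.466 to 1.472 in A/A siControl and 1.433 to 1.442 in S/S siControl, which do not overlap. The ratio was 1.469 to 1.495 in A/A siChchd10 and 1.426 to 1.462 in S/S siChchd10. It ran from 1.425 to 1.464 in S/S shAtf4 and from 1.372 to 1.449 in S/S shControl, where the groups overlapped. Such sums weigh abundant members most. Rps2 and Rpsa, of the small subunit, averaged 2674 and 2648 CPM in S/S siControl. Their log2 fold changes in A/A siControl against S/S siControl were -0.47 and -0.56. The ratio without them was not computed, so a shift across all members of a subunit is not shown.

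Most members were lower in A/A than in S/S cells. With siControl, 66 of the 80 members fell and 5 rose at an adjusted p under 0.05, where 34.7% of all 18138 genes tested fell and 35.6% rose (70.2% called in all; edgeR's quasi-likelihood test with Benjamini-Hochberg adjustment over all genes). The members' median log2 fold change was -0.32, with quartiles of -0.47 and -0.19, against a median of 0.01 over all genes. The large subunit had 41 members that fell and 3 that rose of 48 (median -0.30), and the small subunit 25 that fell and 2 that rose of 32 (median -0.36). In 62 members all 4 A/A siControl libraries lay below all 4 S/S siControl libraries, and in 5 they lay above, where 31.8% and 32.8% of all genes did so. Genotype cannot be told apart from other differences between the A/A and S/S cultures. The epithelial markers went with it too: their sum was 4112 to 4272 CPM in A/A siControl and 5291 to 5902 CPM in S/S siControl, and of 8 tested 5 fell, Cldn4 (-4.58) and Epcam (-2.62) most, and 3 rose, Sftpc (2.02) and Nkx2-1 (1.615) most. Their part in the result was not tested.

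The deepest falls were in the large subunit. Rpl39, a small protein that lines the exit tunnel of the nascent chain, measured 135, 126, 122 and 123.2 CPM in A/A siControl and 241, 254, 199.6 and 235 CPM in S/S siControl. No A/A library came near the lowest S/S library, and the A/A mean was 54.5% of the S/S mean (log2 fold change -0.88 ± 0.08 SE, adjusted p = 1.85e-08, edgeR). Rpl14 measured 508, 474, 478 and 479 CPM in A/A siControl and 868, 824, 752 and 879.8 CPM in S/S siControl. This large-subunit protein was lower in every A/A library (-0.78 ± 0.05, adjusted p = 5.66e-14, edgeR). Rpl36a, which sits at the exit site for deacylated tRNA, measured 141, 128, 135 and 136 CPM in A/A siControl and 240, 243, 202 and 245 CPM in S/S siControl. Its groups did not overlap either (-0.78 ± 0.07, adjusted p = 7.55e-10, edgeR). Rpl9, near the base of the stalk, fell by 0.66 on the log2 scale, and Rpl7 by 0.53. Among the small subunit, Rps20 of the head fell most, by 0.61, to 277 ± 3.27 CPM in A/A siControl, against 423 ± 35.9 CPM in S/S siControl. Rpsa, also known as the laminin receptor, averaged 1790 ± 41.0 CPM in A/A siControl and 2648 ± 152 CPM in S/S siControl (-0.56 ± 0.05, adjusted p = 5.39e-11, edgeR). Rps2, which lies at the entry of the mRNA channel, fell by 0.47.

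A few members went the other way. Rpl29, a surface protein of the large subunit, measured 340, 335, 357 and 338 CPM in A/A siControl and 272, 273, 256 and 284 CPM in S/S siControl. All A/A libraries lay above all S/S libraries (0.34 ± 0.05, adjusted p = 2.03e-07, edgeR). Rps14 of the small-subunit platform, which is lost in the 5q deletion syndrome of the bone marrow, measured 652, 629, 668 and 624 CPM in A/A siControl and 578, 576, 497 and 602 CPM in S/S siControl (0.19 ± 0.06, adjusted p = 0.00874, edgeR), and its lowest A/A library was above the highest S/S library. Rpl24, which bridges to the small subunit, rose by 0.16 and did not overlap between groups. Rps3a1 rose by 0.11 and lost that call when A/A siControl replicate 1 or 3 or S/S siControl replicate 3 was left out, and with DESeq2, with RLE scaling and with a replicate block, with an adjusted p of up to 0.196 over the alternatives. Rpl3, whose loops reach the peptidyl transferase centre, measured 1026, 1019, 1050 and 1027 CPM in A/A siControl and 877, 869.5, 774 and 877 CPM in S/S siControl (0.28 ± 0.04, adjusted p = 2.8e-06, edgeR). Its pseudogene row Rpl3-ps1 ran the other way, with 14.6, 9.35, 9.36 and 7.67 CPM in A/A siControl and 108, 103, 94.1 and 107 CPM in S/S siControl. When the counts of rows named as pseudogenes of a member were added to that member, a choice made after seeing the data, the rise of Rpl3 was 0.13 (adjusted p = 0.0139, edgeR). With siChchd10 the rise of 0.23 became 0.07, which did not pass (adjusted p = 0.177).

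**Figure D2:**
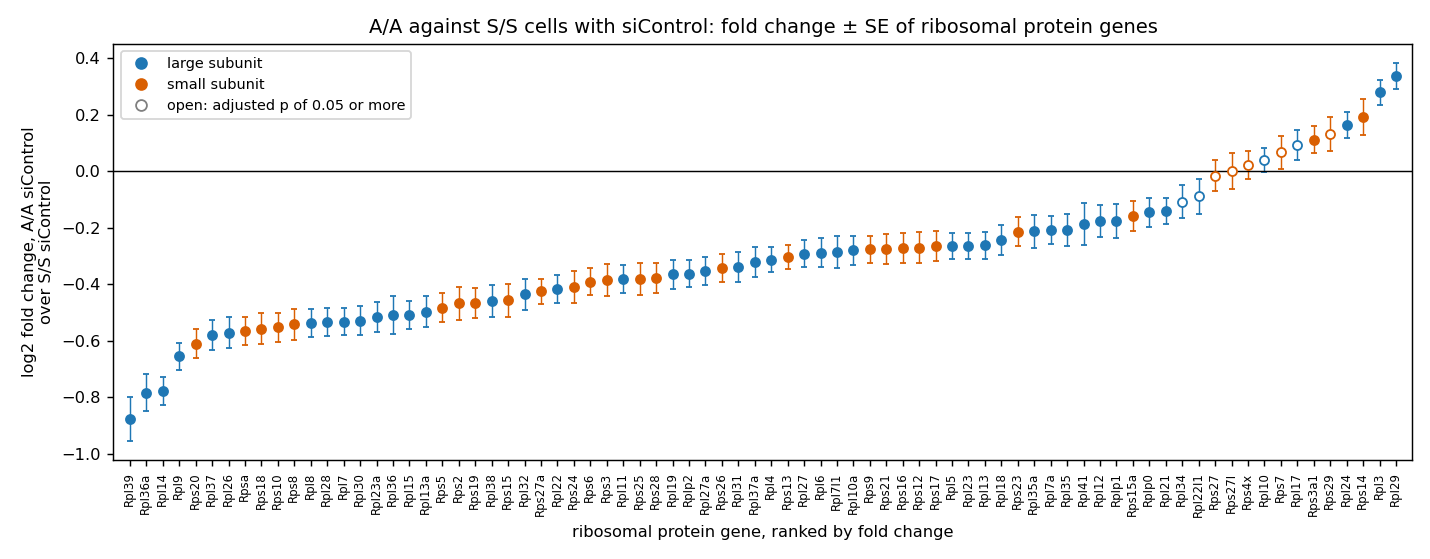
Log2 fold change of A/A siControl over S/S siControl for 78 of the 80 members, ranked, with bars of ± 1 SE from the fit of all 16 siRNA libraries. Blue marks the large and orange the small subunit, and open symbols did not pass an adjusted p of 0.05. The range runs from -0.88 for Rpl39 to 0.34 for Rpl29, with both subunits spread along it.

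Members with known roles beyond the ribosome's shared core took part in the fall to different degrees. The stalk, which recruits elongation factors, gave falls of 0.15 for Rplp0, 0.18 for Rplp1 and 0.36 for Rplp2, of which Rplp1 lost its call without S/S siControl replicate 4 (adjusted p = 0.0539, edgeR). The partners of the 5S RNA, Rpl5 and Rpl11, fell by 0.26 and 0.38. Rps6, the protein that S6 kinase phosphorylates, fell to 256 ± 5.91 CPM in A/A siControl, against 336 ± 20.3 CPM in S/S siControl (-0.39 ± 0.05, adjusted p = 1.55e-08, edgeR). Rps19, the gene most often mutated in Diamond-Blackfan anaemia, fell by 0.47. Rpl22 fell by 0.42, while Rpl22l1 had a log2 fold change of -0.09 that did not pass (adjusted p = 0.201, edgeR). Rpl7 and Rpl7l1 both fell, Rpl7l1 by 0.28. Neither Rps27 (-0.02, adjusted p = 0.816) nor the p53 target Rps27l (0.00, adjusted p = 0.979) passed in edgeR's test. Rpl10 (0.04) and Rps4x (0.02) did not pass either.

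The same contrast in cells with siChchd10 gave a like list. There 61 members fell and 8 rose (70.5% of all genes called; 35.8% fell and 34.7% rose), with a median of -0.29 against -0.01 over all genes. No library is shared between these contrasts, but both compare A/A with S/S cells and come from the same fit. All 61 members that fell with siChchd10 also fell with siControl, which is 92.4% of the 66, and all 5 that rose with siControl rose with siChchd10, which is 62.5% of the 8. The overlap over all genes was not counted, so these shares are not read as particular to the members. The additional rises were Rpl17 (0.13), Rps7 (0.17) and Rps27l (0.16). The deepest falls were again Rpl39, Rpl36a (-0.76), Rpl9 (-0.67) and Rpl14 (-0.65). Rpl39 measured 108, 111, 122 and 122.9 CPM in A/A siChchd10 and 200.6, 179.9, 218 and 231 CPM in S/S siChchd10 (-0.84 ± 0.08, adjusted p = 3.14e-08, edgeR). Rps14 measured 592, 659, 667 and 661 CPM in A/A siChchd10 and 482, 469, 576 and 559 CPM in S/S siChchd10 (0.31 ± 0.06, adjusted p = 0.000133, edgeR). In both genes the groups were fully apart. Over the members, 53 lay wholly below and 5 wholly above, where 32.3% and 31.4% of all genes did.

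The members' medians by chromosome went with those of the other genes there. This was looked at after the values were seen. Over the 19 chromosomes that carry members, the members' median log2 fold change in A/A siControl against S/S siControl followed the median of all other genes of the chromosome (Pearson's r = 0.886, Spearman's rho = 0.856, over 19 medians that share the same 8 libraries and hold 1 to 14 members each). On chromosome 18 the members Rpl17 and Rps14 had a median of 0.14 and the other genes a median of 0.41. On chromosome 3 the members Rpl22l1, Rpl34, Rps27 and Rps3a1 had a median of -0.05 and the other genes one of 0.29. On chromosome 15 the members Rpl3, Rpl8, Rpl30 and Rpl37 had a median of -0.53 and the other genes one of -0.22. All 14 members of chromosome 7 fell (median -0.36), where the other genes had a median of 0.04. The members' median lay below that of the other genes on each of the 19 chromosomes. After the chromosome's median was subtracted, 76 of 80 members were below 0 and their median stayed at -0.32. The SD of the members' log2 fold changes was 0.2404 before the subtraction and 0.2042 after it, so most of the spread between single members remained. With siChchd10 the relation had r = 0.909 and rho = 0.87, and after the subtraction 71 of 80 were below 0 (median -0.25). Copy number was not measured in these data, and its part in these values was not tested.

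**Figure D3:**
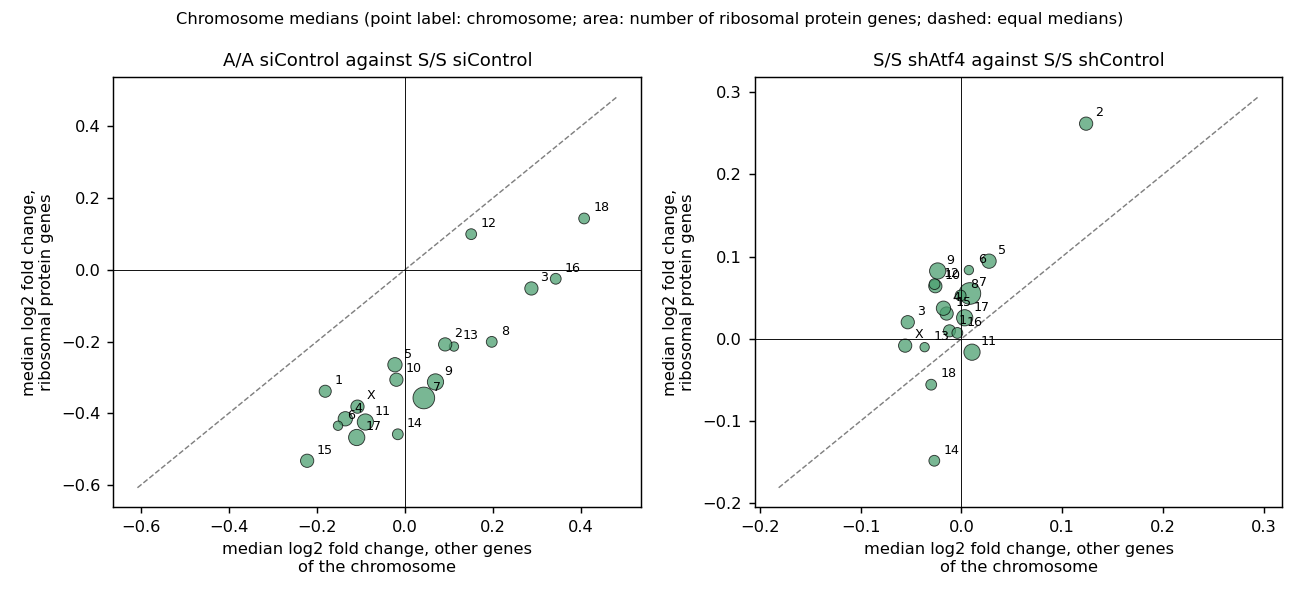
Median log2 fold change of the members on a chromosome (y axis) against that of all other tested genes of the chromosome (x axis), for A/A siControl over S/S siControl (left) and S/S shAtf4 over S/S shControl (right); each point is 1 of 19 chromosomes, its area grows with the number of members and the dashed line marks equal medians. On the left all 19 points lie under the dashed line, and on the right chromosome 2 stands apart, at 0.26 for its 4 members and 0.12 for its other genes.

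The motif that gives these mRNAs their name can be read at the annotated transcription starts. RefSeq promoter sequences of build GRCm38.p6 were found for 60 of the 80 members, and a C followed by at least 4 pyrimidines (C or T) stood exactly at an annotated start in 13 of them (21.7%), against 3.01% of all 27025 genes in the same promoter table. Anywhere in a window of 30 bases around the start, on the gene's own strand, it stood in 39 of 60 members (65.0%) and in 39.6% of all genes. The windows below begin 10 bases before the annotated start and include 20 bases from it. Capitals mark the longest run of a C and the pyrimidines after it, and a window all in lower case has no such run. The members were picked because they carry the contrasts of this text. Rpl14, Rps6 and Rplp2 fell and have the motif at the start, within a run that begins before it. In Rpl7a the run also begins before the start, but the start itself is a T. Rpl39 fell and has a short run that begins before the start and a longer one further in. Rps2 fell and has it only further in. Rpl24, which rose, has none. Members without a run also fell in A/A siControl against S/S siControl, among them Rpl9 (-0.66) and Rpsa (-0.56), whose windows are not shown.
Rpl14 (chr9:120571507-120571536, plus strand): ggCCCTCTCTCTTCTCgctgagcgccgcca
Rps6 (chr4:86857348-86857377, minus strand): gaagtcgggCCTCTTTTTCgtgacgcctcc
Rplp2 (chr7:141447641-141447670, plus strand): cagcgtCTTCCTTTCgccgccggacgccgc
Rpl39 (chrX:37085203-37085232, minus strand): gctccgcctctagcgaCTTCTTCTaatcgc
Rps2 (chr17:24720053-24720082, plus strand): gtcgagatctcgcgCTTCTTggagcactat
Rpl7a (chr2:26910797-26910826, plus strand): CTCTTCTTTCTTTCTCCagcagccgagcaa
Rpl24 (chr16:55966265-55966294, plus strand): gctgttgctaggaaacagactgggcgctcg

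Annotated starts can miss the start that the cells use, and 9 members have more than 1, so these letters describe the annotation. Members with the motif at an annotated start gave 12 falls of 13 in A/A siControl against S/S siControl (median -0.39), and members without it 39 falls and 2 rises of 47 (median -0.29). The difference between these sets was not tested.

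Of the other genes of ribosome production, further TOP mRNAs and assembly factors were mostly lower in A/A cells, like the members, and other lists were mixed. Of 15 further TOP mRNAs, mainly elongation factors and other parts of the translation machinery, 13 fell and none rose with siControl (median -0.39). Among them the nucleolar chaperone Npm1 fell by 0.88 and the poly(A)-binding protein Pabpc4 by 0.71. Of 76 assembly and rRNA processing factors tested, 60 fell and 6 rose (median -0.38), led by Nhp2 of the H/ACA particle (-1.004) and Wdr36 (-0.87), while Las1l rose by 0.40 and Rpf2 by 0.33. RNA polymerase I and its factors gave 10 falls and 4 rises of 20, with Polr1c at -0.66 and Polr1a at -0.61, and with rises of Taf1d (0.47) and Rrn3 (0.37), so that 70% of them were called, where 70.2% of all genes were. Of 9 dedicated chaperones of ribosomal proteins, 6 fell, Nap1l1 (-0.57) and Grwd1 (-0.50) most, and 2 rose, namely Tsr2 (0.40), which carries RPS26, and Heatr3 (0.24). Of 4 ribosomal proteins whose symbols do not have the Rpl or Rps form, Rack1 (-0.60) and Fau (-0.59) fell. The 11 host genes of small nucleolar RNAs went both ways, with 3 falls, Zfas1 (-0.65) and Snhg12 (-0.44) deepest, and 3 rises, Snhg5 (0.83) and Snhg20 (0.59) highest, and their 54.5% called is under the share of all genes. Growth regulators were also mixed, with 6 falls and 9 rises of 17. Eif4ebp1, an mTORC1 target, fell by 0.74 and Rheb, which activates mTORC1, by 0.62. The S6 kinase gene Rps6kb2 rose by 0.82 and Mycn by 1.44, while Myc fell to 113 ± 3.43 CPM in A/A siControl, against 169 ± 9.48 CPM in S/S siControl (-0.57 ± 0.04, adjusted p = 2.73e-12, edgeR). With siChchd10 the same contrast gave 44 falls and 14 rises of 76 assembly factors, with Wdr36 at -0.73 and Las1l at 0.75. The chaperones gave 2 falls and 3 rises of 9 (median -0.04) and polymerase I genes 8 falls and 5 rises of 20 (median 0.02), so neither was mostly lower there. The further TOP mRNAs gave 12 falls and 1 rise of 15, and Tsr2 rose by 1.10.

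**Figure D4:**
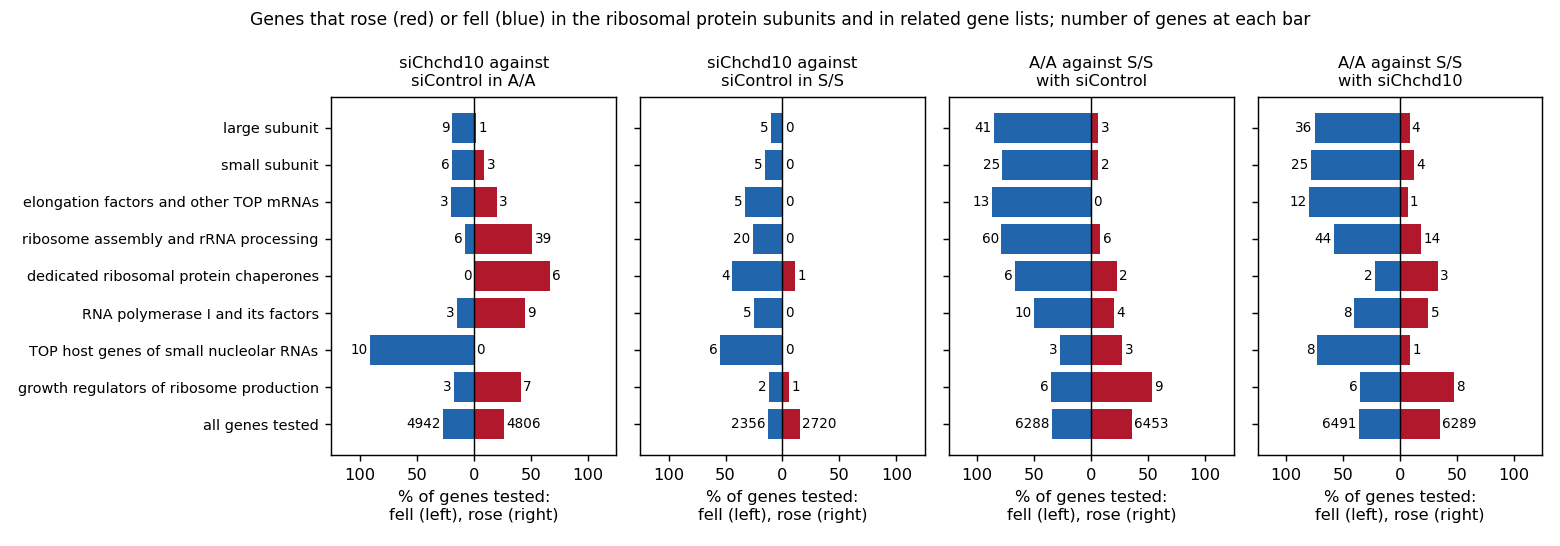
Percent of the tested genes of each list that rose (red, right) or fell (blue, left) at an adjusted p under 0.05, with the number of genes at each bar, for 4 comparisons of the siRNA table; the lowest row gives all 18138 genes. Assembly factors fell in 60 of 76 in A/A against S/S with siControl and rose in 39 of 76 with siChchd10 in A/A cells, where the members gave 15 falls and 4 rises.

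Within a group the members moved in step from library to library. Deviations were computed for the members only, and whether other genes shifted with them was not tested. All 80 members were below their group's mean in S/S siControl replicate 3, in S/S siChchd10 replicate 2 and in A/A siChchd10 replicate 1. All 80 were above it in S/S siControl replicate 4 and S/S siChchd10 replicate 4, and 79 were above it in S/S siChchd10 replicate 3. The median deviations were -0.14 in S/S siControl replicate 3, -0.13 in S/S siChchd10 replicate 2 and 0.09 in S/S siChchd10 replicate 3 on the log2 scale. They are of the size of the members' median change with siChchd10 in S/S cells (-0.09). In A/A cells that median change was -0.02. Among the shRNA libraries, 76 members were above the mean in S/S shControl replicate 2 (median deviation 0.19), and single genes scattered more. Rpl17 measured 60.8, 78.8, 89.98 and 156 CPM in S/S shAtf4 and 84.7, 194, 88.8 and 51.5 CPM in S/S shControl.

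**Figure D5:**
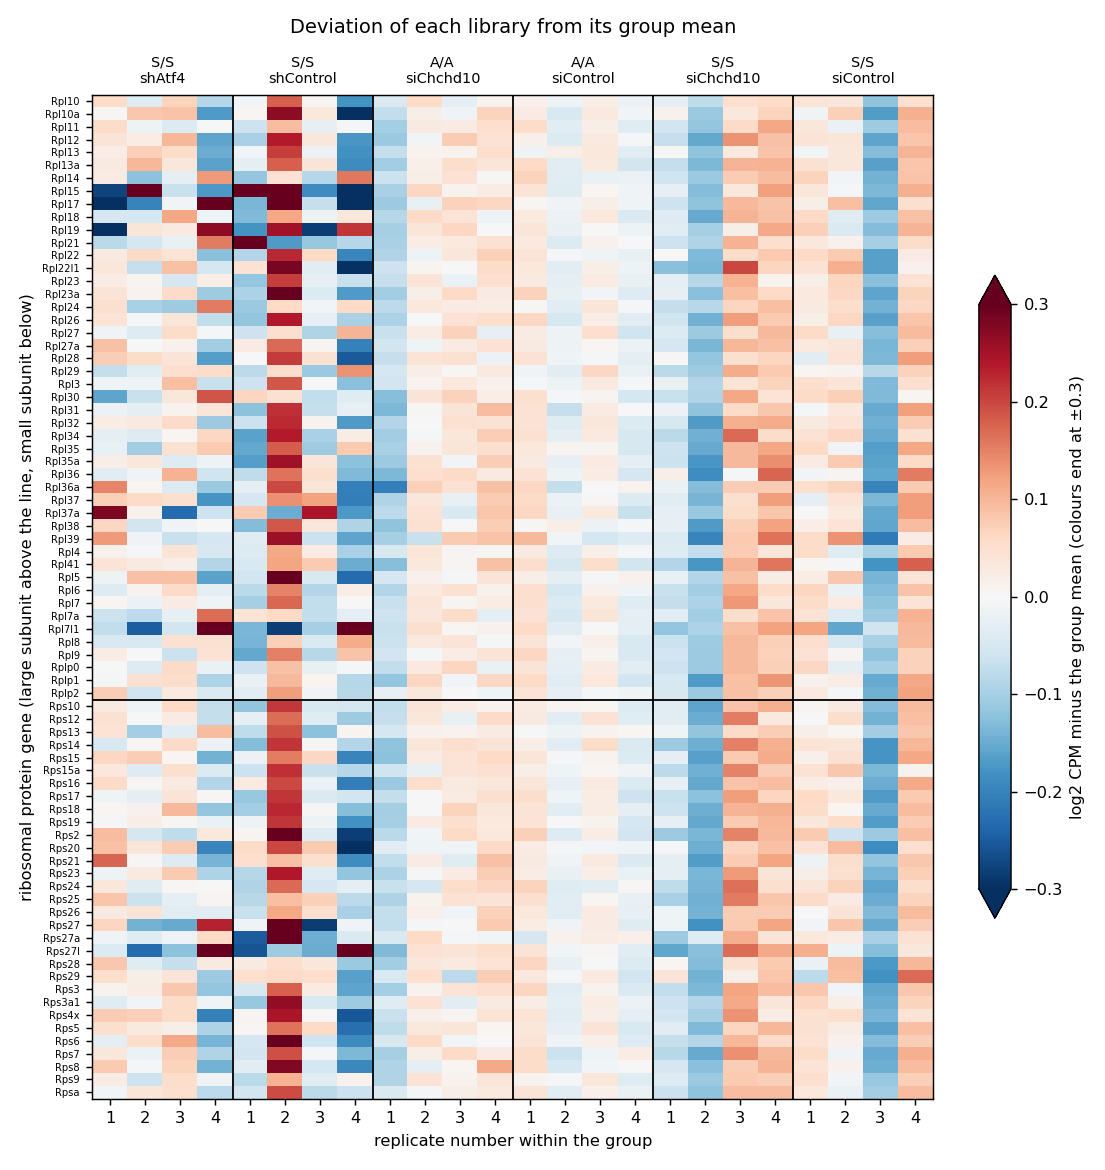
Log2 CPM of 78 members (rows, large subunit above the line and small subunit below) in each of the 24 libraries (columns), minus the mean of its group; red is above and blue below the mean, with colours ending at ±0.3. Whole columns share a colour: S/S siControl replicate 3 and S/S siChchd10 replicate 2 are blue and S/S siChchd10 replicates 3 and 4 red through all or nearly all rows.

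In S/S cells the share of members that fell with siChchd10 was near that of all genes. Of 80 members, 10 fell and none rose, where 28.0% of all genes were called (13.0% fell and 15.0% rose), and the median was -0.09 against 0.00 over all genes. The members' share of 12.5% called, all of them falls, is under the 28.0% of all genes called and near the 13.0% that fell. Rps2 measured 2060, 2022, 2463 and 2380 CPM in S/S siChchd10 and 2820, 2558, 2476 and 2840 CPM in S/S siControl. It was the only member without overlap (-0.26 ± 0.06, adjusted p = 0.00118, edgeR), where 11.8% of all genes lay wholly below and 13.7% wholly above. Rpl22l1, the paralog of Rpl22, measured 94.0, 93.2, 118 and 107 CPM in S/S siChchd10 and 124, 129.8, 108 and 122 CPM in S/S siControl (-0.23 ± 0.06, adjusted p = 0.00618, edgeR), and S/S siControl replicate 3 lay inside the range of S/S siChchd10. Rps23 of the decoding centre fell by 0.20 and Rpl4, whose loop reaches the exit tunnel, by 0.16, and these 4 genes kept their call whichever library was left out. The others were Rplp1 (-0.19), Rps25 (-0.18), Rpsa (-0.17), Rplp2 (-0.16), Rps20 (-0.16) and Rpl3 (-0.15), and each lost its call without at least 1 library. Over single libraries left out, the count ran from 5, without S/S siChchd10 replicate 2, to 31, without S/S siControl replicate 3. It was 6 without S/S siControl replicate 4, 22 without S/S siChchd10 replicate 3 and 17 without S/S siChchd10 replicate 4.

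Among related lists in S/S cells, called genes mostly fell. Of the assembly factors 20 of 76 fell and none rose, with Wdr12 at -0.27 and Wdr43 at -0.26. Of the further TOP mRNAs 5 of 15 fell, Vim (-0.28) and Hnrnpa1 (-0.26) most. Of the snoRNA host genes 6 of 11 fell, led by Snhg8 (-0.48) and Epb41l4aos (-0.42), and of polymerase I genes 5 of 20, Taf1b (-0.25) and Polr1a (-0.24) among them. The shares called, 26.3% of assembly factors and 25% of polymerase I genes, are under the 28.0% of all genes, of which 13.0% fell. The chaperones gave 4 falls, with Heatr3 at -0.22 and Tsr2 at -0.20, and 1 rise, of Aamp (0.12). Eif4ebp1 fell by 0.36 and the mTOR subunit gene Mlst8 rose by 0.22. Of the 8 epithelial markers 5 rose, Epcam (1.96) and Cldn4 (1.10) most, and their part in these values was not tested.

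In A/A cells siChchd10 moved members in both directions. Of 80 members, 15 fell and 4 rose, where 53.7% of all genes were called (27.2% fell and 26.5% rose), and the median was -0.02 against -0.01 over all genes. With RLE scaling 6 rose and 11 fell, and 6 rose and 13 fell with TMM factors set without ribosomal and mitochondrial genes. In 18 members the A/A siChchd10 libraries lay wholly below and in 5 wholly above A/A siControl, against 24.9% and 24.98% of all genes, and both shares of the members are under those. Rpl5, which with Rpl11 and the 5S RNA binds MDM2, measured 644, 674, 665 and 686 CPM in A/A siChchd10 and 796, 770.1, 781 and 792 CPM in A/A siControl. Its groups were far apart (-0.23 ± 0.05, adjusted p = 9.86e-05, edgeR), whereas Rpl11 did not pass (0.04, adjusted p = 0.502). Rpl3 fell by 0.20, Rpl12 of the stalk base by 0.19 and Rps29 by 0.18. Rpl7l1, a paralog of Rpl7, measured 118, 127, 124 and 124 CPM in A/A siChchd10 and 105, 98.7, 101 and 99.2 CPM in A/A siControl. It rose in every library (0.29 ± 0.06, adjusted p = 0.000111, edgeR), while Rpl7 fell by 0.14. Rps27l rose by 0.19, to 111 ± 6.65 CPM in A/A siChchd10, against 97.9 ± 2.08 CPM in A/A siControl, and its paralog Rps27 did not pass (0.01). Rps9 of the small-subunit body rose by 0.13. The calls of Rpl3, Rpl5, Rpl12, Rpl7l1 and Rps27l held whichever library was left out. The number called was 10 without A/A siControl replicate 3, of which 5 fell and 5 rose, and 10 without A/A siChchd10 replicate 1, of which 3 fell and 7 rose. It was 12 without A/A siControl replicate 1, of which 6 fell and 6 rose, so the larger number of falls was lost without any of these 3 libraries. Of the members that fell, 5 had also fallen in S/S cells (Rpl22l1, Rpl3, Rps2, Rps23 and Rpsa), which is 33.3% of the 15 in A/A and 50% of the 10 in S/S. Of the 8 epithelial markers 4 rose, Sftpc (5.36) and Epcam (0.84) most, and 3 fell, Krt18 (-0.16) and Krt8 (-0.14) most, and their part in these values was not tested.

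The response to siChchd10 differed between genotypes in 5 members. In the interaction, the siChchd10 effect in A/A minus that in S/S, 5 members were higher and none lower, where 35.6% of all genes were called (16.7% higher and 18.9% lower). The median was 0.05 against -0.01 over all genes. For Rpl7l1 the effect was 0.29 in A/A and -0.06 in S/S, with a difference of 0.34 ± 0.08 (adjusted p = 0.00125, edgeR). For Rplp1 of the stalk it was 0.10 in A/A and -0.19 in S/S, with a difference of 0.29 ± 0.08 (adjusted p = 0.00795, edgeR). Rpl4 also passed (0.17 ± 0.06, adjusted p = 0.0418, edgeR), but lost the call without S/S siControl replicate 1 or 4, S/S siChchd10 replicate 1 or 2, A/A siControl replicate 2 or A/A siChchd10 replicate 2. The count of 5 became 12 without S/S siControl replicate 3 and 8 without S/S siChchd10 replicate 3 or A/A siChchd10 replicate 1. It was 3 without S/S siControl replicate 4, S/S siChchd10 replicate 2 or A/A siChchd10 replicate 2.

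Assembly factors and chaperones of ribosomal proteins mostly rose where they were called in A/A cells. With siChchd10, 39 of 76 assembly factors rose and 6 fell, with Pno1 (0.43) and Ddx18 (0.42) highest and Nat10 (-0.26) and Nob1 (-0.21) lowest. That is 59.2% called, where 53.7% of all genes were called and 26.5% rose. The chaperones gave 6 rises of 9 and no fall, with Tsr2 at 0.51 and Grwd1, whose yeast counterpart carries Rpl3, at 0.31. Polymerase I genes gave 9 rises, Cd3eap (0.41) and Polr2f (0.31) highest, and 3 falls of 20, Taf1d (-0.60) and Taf1b (-0.23) deepest, which is 60% called. The further TOP mRNAs were split, with 3 rises, Tpt1 (0.15) highest, and 3 falls, Vim (-0.61) and Hnrnpa1 (-0.44) deepest. The snoRNA hosts gave 10 falls of 11, with Snhg5 at -0.79 and Gas5 at -0.69. Of 5 RNAs without a poly(A) tail that could be tested, 3 fell, Rpph1 (-1.22) and Rmrp (-1.14) most, and the part of RNA selection in these values was not tested. Myc fell to 78.8 ± 4.64 CPM in A/A siChchd10, against 113 ± 3.43 CPM in A/A siControl (-0.52 ± 0.05, adjusted p = 1.07e-10, edgeR), Rps6kb2 fell by 0.45, and Mlst8 (0.46) and Akt1s1 (0.45) rose. In the interaction 44 assembly factors were higher and 1, Nat10, lower. Of 9 chaperones 7 were higher, of which Tsr2 had a difference of 0.70 ± 0.08 (adjusted p = 2.15e-07, edgeR).

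Atf4 knockdown left no member past the threshold. In S/S shAtf4 against S/S shControl, 0 of 80 members passed in edgeR's test, where 0.538% of all 14697 genes did (0.15% higher and 0.388% lower), and 5 members had an unadjusted p under 0.05, all of the large subunit, as did 10.5% of all genes (1549 of 14697). DESeq2 called 1, Rpl7a. The median was 0.04, against 0.00 over all genes, and 56 members were above 0. Without S/S shControl replicate 4 the median was -0.00 and Rpl7a was called. In 3 members (Rpl7a, Rpl27 and Rpl8) the S/S shAtf4 libraries lay wholly above those of S/S shControl, where 3.22% of all genes did, and none lay wholly below, where 3.57% did. Rpl7a, a protein of the large subunit, measured 168, 166, 173 and 197 CPM in S/S shAtf4 and 135, 137, 124.9 and 129 CPM in S/S shControl (0.42 ± 0.08, adjusted p = 0.0797, edgeR). Rpl27 measured 280.1, 275, 293 and 281 CPM in S/S shAtf4 and 228, 246, 224 and 256 CPM in S/S shControl (0.24 ± 0.08, adjusted p = 0.274, edgeR). Both genes were higher in each shAtf4 library than in any control library.

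With the replicate number as a block 8 members were called, all higher, where 20.2% of all genes were called. The labels do not say what libraries of the same number share. These were Rpl7a (0.42, adjusted p = 0.000224), Rpl12 (0.28), Rpl27 (0.24), Rps21 (0.21), Rpl35 (0.25), Rpl22l1 (0.30), Rpl29 (0.19) and Rpl8 (0.18), in edgeR's test. The leading principal component, on which replicate 4 of both groups stood apart, and the loss of Ddx3y go with this contrast, and their part in it was not tested. Of the 8, Rpl7a, Rpl12, Rps21 and Rpl35 are the 4 members on chromosome 2, where the members' log2 fold changes ran from 0.21 to 0.42 and the median of the other 1168 genes was 0.12. On every other chromosome that carries members that median was at most 0.03. Among paralogs, Rps27l measured 110, 96.9, 104 and 149.6 CPM in S/S shAtf4 and 87.2, 97.1, 94.3 and 149 CPM in S/S shControl, and Rpl7l1 reached 207 CPM in S/S shAtf4 replicate 4 and 206 CPM in S/S shControl replicate 4. In both genes the libraries numbered 4 were the highest of their group. Assembly factors, polymerase I genes, chaperones, further TOP mRNAs, snoRNA hosts and growth regulators gave 0 calls in edgeR's test without the block, and at an unadjusted p under 0.05 gave 2 assembly factors, 1 polymerase I gene and 1 TOP mRNA. Still, 72 of 76 assembly factors had a log2 fold change above 0 (median 0.195), where 49.3% of all genes did. So did 17 of 20 polymerase I genes, 10 of 11 snoRNA hosts and 7 of 9 chaperones. Further TOP mRNAs (9 of 15) and growth regulators (9 of 16) were less one-sided. These shifts of whole lists were not tested.

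Set side by side, the control groups of the 2 tables gave very different levels for some members. The tables were scaled separately and the cells differ in Cdkn2a, so no test is made. Rpl21 averaged 70.2 ± 13.0 CPM in S/S shControl and 739 ± 34.3 CPM in S/S siControl. Rpl7a averaged 132 ± 5.58 CPM in S/S shControl and 1003 ± 64.8 CPM in S/S siControl, and Rpl17 105 ± 61.9 CPM and 607 ± 44.0 CPM in the same groups. Rpl29 (87.6 and 271 CPM) and Rpl22l1 (48.0 and 121 CPM) were also lower in S/S shControl. Other members were higher there, among them Rps27 (418.7 and 234.5 CPM) and Rps3a1 (1303 and 768.7 CPM). Rows named as pseudogenes of a member, 280 in each table, summed to between 3.04% and 3.48% of the members' counts in the shRNA libraries and to between 0.292% and 0.512% in the siRNA libraries. In S/S shControl such rows summed to 60.69 CPM for Rpl21, 17.94 CPM for Rpl7a, 127.7 CPM for Rpl17 and 0.2016 CPM for Rpl29. Rpl22l1 has no such row. Their part in the differences between the tables was not tested. How reads that match several copies were counted is not stated, so these levels are uncertain for genes with near-identical copies, and the contrasts above stay within a table.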

How the data were processed

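Total RNA was extracted with Trizol, libraries followed the TruSeq Stranded Total RNA protocol and were sequenced on a NovaSeq instrument, per the labels' protocols, while the molecule is labelled polyA RNA. Raw gene counts, in whole numbers, were deposited by the authors as a table of 8 shRNA libraries and a table of 16 siRNA libraries. Build mm10 and DESeq2 1.24.0 are named in the submitters' processing notes; the aligner, counter, strand setting and annotation are not stated there.

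Counts were tested with edgeR 4.0.16 in R 4.3.3 (filterByExpr, TMM, robust quasi-likelihood fit, Benjamini-Hochberg over all genes tested, threshold 0.05). Each table had its own fit, with 1 term per group. CPM are TMM-scaled, shares use unscaled totals, and the script was tested on simulated data. p-values measure the spread between these samples, which may be technical. The members, the lists and the rule for named genes were chosen with earlier results of these data known. The rule took the 4 largest rises and 4 largest falls among called members of each comparison, paralogs, stalk and 5S-associated proteins, Rps6, Rps19 and Rpsa, and in each related list the 2 largest rises and falls. Other members were named after their values were seen. Deviations from the group means of same-numbered shRNA libraries correlated (r = 0.645, 0.544, 0.373 and 0.871 for numbers 1 to 4), so the number was tried as a block. This does not establish a pairing. Replicate 4 stood apart in both groups and enters every group mean, and libraries of different numbers were not compared. Symbols were matched to RefSeq GRCm38.p6, the assembly that mm10 names. Alternatives were DESeq2 1.42.0, RLE scaling, TMM without ribosomal and mitochondrial genes, no count filter, the replicate block, fewer groups in the fit and leaving out each library. Some members enter the counts, medians and sums, but their own results are not reported here.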

Additional observations from a re-analysis of the deposited data

Results flagged for a closer look

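Among 192 sets of 4 libraries, 16 had a library far from the other 3 by Dixon's criterion at the 95% level, where chance flags about 1 in 20. The sets are not independent because the members move in step. The summed share of the members was low in S/S shAtf4 replicate 4 (4.498%, other libraries 4.88% to 4.93%) and in S/S siControl replicate 3 (4.805%, others 5.27% to 5.36%). In S/S siControl replicate 3 this held for Rpl10 (614.5 CPM), Rpl3 (774.1 CPM), Rpl36a (201.9 CPM) and Rps4x (1102 CPM). In A/A siChchd10 replicate 1 it held for Rpl24 (283.2 CPM), Rpl36a (105.1 CPM), Rps14 (591.7 CPM), Rps19 (321.6 CPM) and Rps27l (101.3 CPM), all below the other 3. Rpl14 was high in A/A siControl replicate 1 (507.6 CPM, others 474 to 479). In the shRNA table Rps27l was high (149.0 CPM) and Rps29 low (293.2 CPM) in S/S shControl replicate 4, Rps4x was low in S/S shAtf4 replicate 4 (816.4 CPM), and Rpsa was high in S/S shControl replicate 2 (1726 CPM).

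The siChchd10 effect differed between A/A and S/S cells by the interaction test in Rpl7l1 (0.3442), Rplp1 (0.2922) and Rpl4 (0.1678), in log2 units and A/A minus S/S.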

How the results depend on the processing

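Members called are counted in each sentence. For S/S shAtf4 against S/S shControl, 0 became 1 with DESeq2, 8 with the replicate block, 2 (Rpl7a and Rpl27) without both libraries numbered 4, and 0 to 1 without single libraries, the 1 being without S/S shControl replicate 4. For siChchd10 in S/S cells, 10 became 20 without the count filter and 5 to 31 without single libraries. For siChchd10 in A/A cells, 19 became 10 to 18 without single libraries. For the interaction, 5 became 8 without the count filter, 3 with the replicate block, and 3 to 12 without single libraries. For A/A against S/S, 71 with siControl became 69 to 72 and 69 with siChchd10 became 65 to 68 without single libraries. RLE scaling, TMM without ribosomal and mitochondrial genes, fitting only the groups compared and adding pseudogene counts stayed within 1.5 times of each count.

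In the siRNA table deviations of same-numbered libraries had r from -0.26 to 0.367, the highest for number 4 of S/S siControl and S/S siChchd10. The numbers there pair nothing known. With the number as a block the counts were 10, 17, 3, 71 and 69 in the order above. Calls kept under every alternative numbered 4 of 10 for siChchd10 in S/S, 5 of 19 in A/A, 3 of 5 for the interaction, 67 of 71 for A/A against S/S with siControl and 60 of 69 with siChchd10. Of the named members' values under alternatives, 1947 kept direction and side of the threshold, 41 newly passed, 36 no longer passed, 66 changed sign with neither value past the threshold, and no called value changed sign.

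With 4 libraries a group and libraries in which all members shift together, small common shifts such as that with siChchd10 in S/S cells depend on which libraries enter. The shares of counts carry counting error only within a library.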
